A study of Mus musculus with 35 samples.

Results

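The 8 genes followed here are known as products of fat cells, and were measured through 35 libraries of RNA from whole mouse lung: Adipoq, Cfd, Retn, Plin1, Fabp4, Lipe, Pnpla2 and Ucp1. They are 8 of the 57186 genes in the table, taken by gene symbol, and each symbol named 1 Ensembl gene. They were selected on their CPM (read counts scaled to library size, here with TMM factors) in these same libraries, across untreated days and after naphthalene, so those levels are given as a description, without a test. The lungs came from mice that, per the series design, were 14 days old, and were either given naphthalene, a hydrocarbon that injures airway club cells, or left untreated. Each lung carries a day label of 2, 5 or 7, which after naphthalene counts the days since treatment; what the day label means for an untreated mouse, and the age that goes with it, is not stated in the labels. KO mice were RORaf/fIl7riCre, in which Cre from the Il7r locus acts on the loxP-flanked Rora gene, and C mice were RORaf/f, whose label names no Cre, so all groups carry the floxed allele. Il7r is expressed mainly in lymphoid cells, which are a minority of whole lung. Each of the 12 groups held 3 libraries, except KO at day 7 after naphthalene, which held 2. Nothing in the labels says that libraries of a group came from separate mice, so errors and p-values measure the spread between libraries, which may be technical.

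White fat cells store triglyceride in a single large droplet coated by perilipin 1, release fatty acids from it by the sequential action of adipose triglyceride lipase and hormone-sensitive lipase, and secrete adiponectin, adipsin and resistin. Fabp4 carries fatty acids in the cytosol of fat cells, and is also known from capillary endothelium and macrophages, while the lipases encoded by Pnpla2 and Lipe occur in many tissues. Brown fat cells differ by the uncoupling protein Ucp1, which makes heat in their mitochondria. Fat cells are not part of the alveolar wall, although fat lies beside the lung in the mediastinum, and lipid-storing fibroblasts of the alveolar septa hold droplets without being fat cells.

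Promoter sequences are shown for Adipoq, Cfd and Plin1, whose levels went together across libraries, and for Lipe, whose level did not go with them. The RefSeq promoter table of build GRCm38.p6, which is not the build of the counts, held 7 of the 8 genes, with 8 promoters since Lipe had 2; each covers 250 bases before and 50 bases after the annotated start, so 300 bases. The stretches shown are chr16:23146286-23146585 on the plus strand for Adipoq, chr10:79890603-79890902 on the plus strand for Cfd, chr7:79732727-79733026 on the minus strand for Plin1 and chr7:25390063-25390362 on the minus strand for Lipe. Capitals mark matches, on either strand, to 4 words searched: CCAAT, the C/EBP core TTGCNNAA, the FoxO word GTAAACA and the nuclear receptor hexamer AGGTCA.
Adipoq: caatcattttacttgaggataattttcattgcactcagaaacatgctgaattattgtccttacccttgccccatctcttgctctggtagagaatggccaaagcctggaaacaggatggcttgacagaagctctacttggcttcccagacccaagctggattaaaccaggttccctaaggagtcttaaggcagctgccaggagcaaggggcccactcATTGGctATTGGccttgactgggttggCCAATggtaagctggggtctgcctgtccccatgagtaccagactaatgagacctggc
Cfd: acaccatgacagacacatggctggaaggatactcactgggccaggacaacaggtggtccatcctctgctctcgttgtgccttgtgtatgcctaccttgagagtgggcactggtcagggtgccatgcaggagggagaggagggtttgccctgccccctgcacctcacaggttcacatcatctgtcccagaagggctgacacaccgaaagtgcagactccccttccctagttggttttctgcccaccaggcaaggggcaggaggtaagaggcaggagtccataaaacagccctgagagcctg
Plin1: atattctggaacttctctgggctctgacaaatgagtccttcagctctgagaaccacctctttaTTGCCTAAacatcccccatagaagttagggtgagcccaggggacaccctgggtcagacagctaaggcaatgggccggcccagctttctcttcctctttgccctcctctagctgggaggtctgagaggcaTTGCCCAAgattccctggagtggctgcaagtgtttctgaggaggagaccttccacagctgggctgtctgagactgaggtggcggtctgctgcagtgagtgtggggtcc
Lipe: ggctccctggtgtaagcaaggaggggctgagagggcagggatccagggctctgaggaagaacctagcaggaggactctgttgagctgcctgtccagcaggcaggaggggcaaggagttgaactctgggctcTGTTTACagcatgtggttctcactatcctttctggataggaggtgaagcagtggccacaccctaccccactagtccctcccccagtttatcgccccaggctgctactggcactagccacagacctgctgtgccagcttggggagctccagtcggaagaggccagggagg

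The Adipoq promoter held CCAAT on its own strand at position -7 from the start and on the opposite strand at -34 and -27, a word found in 37.4% of the 32841 promoters of the table. The Plin1 promoter held the C/EBP core at -187 and -58, against 10.8% of all promoters with at least 1. The FoxO word lay on the opposite strand at -119 of the Lipe promoter shown and was present in 3.65% of promoters. AGGTCA, present in 16.3%, lay at -14 of the Ucp1 promoter, and none of the 5 words searched, a pair of AGGTCA hexamers 1 base apart included (0.0396% of promoters), was in the windows of Cfd, Retn, Pnpla2 or the other Lipe promoter. A match is a description of letters in a window and says nothing of binding.

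Library totals ran between 10696690 and 21062713 counts, so that 1 read was worth 0.0487 to 0.0886 CPM. All 8 genes passed the filter on low counts, which left 20606 genes tested. Rora, the gene targeted in KO mice, had 25.2 to 64.0 CPM in the 17 KO libraries (median 45.3), against 32.1 to 53.4 CPM in the 18 C libraries (median 42.7), and its average KO-C difference over all days was 0.14 ± 0.09 on the log2 scale (SE; edgeR adjusted p = 0.398). A loss of Rora was thus not detectable from the count over the whole gene in whole lung, and the genotype label is not checked by it. Il7r, whose locus carries the Cre, had 3.27 to 11.2 CPM in KO (median 5.07) against 1.75 to 12.2 CPM in C (median 8.19), an average difference of -0.39 ± 0.18 (unadjusted p = 0.0345, edgeR adjusted p = 0.315). KO lay below C without overlap in untreated lungs of days 5 and 7 and in treated lungs of days 2 and 7, and the groups overlapped in the others. In 1 library, untreated KO replicate 1 of day 7, the ribosomal RNA gene Rn18s-rs5 took 8.12% of reads, against 0.715% to 3.76% in the others. Library names carry a letter that follows treatment and day: naphthalene and untreated lungs share no letter at days 2 and 5, nor do the untreated lungs of different days, while all 11 libraries of day 7 share 1 letter that no other day has. At days 2 and 5 letter and treatment cannot be told apart, nor can letter and day among untreated lungs; within day 7 the groups share the letter.

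Adiponectin, the product of Adipoq, is a circulating hormone made almost solely by fat cells. Its mRNA spanned 0.443 to 4.07 CPM (5 to 74 reads per library, 9.20-fold). At day 2 Adipoq had 1.59, 2.53 and 1.70 CPM in naphthalene-treated KO lungs, against 0.443, 0.771 and 1.53 CPM in untreated KO lungs. In C lungs of the same day it had 1.86, 1.32 and 1.59 CPM after naphthalene, against 1.22, 0.582 and 1.14 CPM without it. Every treated library of day 2 lay above every untreated library of its genotype, with a narrow gap in KO, and the log2 change was 1.07 ± 0.50 in KO and 0.68 ± 0.48 in C (SE). At day 5 it had 0.832, 2.74 and 2.59 CPM in treated KO lungs against 1.17, 1.74 and 1.00 CPM in untreated ones, which overlapped. It had 1.45, 1.52 and 1.21 CPM in treated C lungs against 0.946, 0.492 and 1.17 CPM in untreated ones, which did not. At day 7 Adipoq had 3.34 and 1.59 CPM after naphthalene in KO and 2.76, 3.97 and 3.50 CPM in C, against 0.792, 3.99 and 3.57 CPM in untreated KO and 2.63, 1.93 and 4.07 CPM in untreated C. Treated and untreated lungs of day 7 overlapped, and 1 untreated KO library of that day stayed at the level of the earlier days, the one with 8.12% of reads on Rn18s-rs5. The mean over genotypes in untreated lungs was 0.948 ± 0.418 CPM at day 2, 1.09 ± 0.406 at day 5 and 2.83 ± 1.30 at day 7 (SD, n = 6 each).

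Adipsin, or complement factor D, encoded by Cfd, cleaves factor B in the alternative complement pathway and is among the most abundant secreted proteins of mouse fat. Cfd ranged over 19.9-fold, between 1.10 and 21.9 CPM, the widest of the 7 genes with reads in every library. At day 2 it had 3.05, 9.50 and 5.33 CPM in naphthalene-treated KO lungs, against 2.04, 1.10 and 1.39 CPM in untreated KO lungs. C lungs of day 2 had 6.49, 3.46 and 9.45 CPM of Cfd after naphthalene, against 2.78, 2.79 and 1.56 CPM without it. The groups did not overlap in either genotype, and the log2 change was 2.01 ± 0.62 in KO and 1.44 ± 0.58 in C (SE). At day 5 the C groups were still apart, with 6.39, 4.37 and 7.13 CPM after naphthalene against 2.04, 1.76 and 2.93 CPM without, whereas the KO groups overlapped, with 2.91, 16.03 and 8.68 CPM against 3.38, 1.56 and 4.06 CPM.

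Untreated lungs themselves had a higher mean of Cfd at day 7: it was 1.94 ± 0.720 CPM at day 2, 2.62 ± 0.996 at day 5 and 9.21 ± 7.16 at day 7 (SD, n = 6 each). The spread at day 7 was wide, with 2.59, 5.94 and 13.2 CPM in KO and 6.82, 4.83 and 21.9 CPM in C. After naphthalene the day 7 values of 7.38 and 7.85 CPM in KO and 12.04, 15.3 and 7.69 CPM in C lay inside that range, and the log2 change was 0.06 ± 0.61 in KO and 0.05 ± 0.53 in C (0.98 in C without the untreated lung of 21.9 CPM). Set in order of their means, the untreated lungs of days 2 and 5, the naphthalene-treated lungs of days 2 and 5, the untreated lungs of day 7 and the treated lungs of day 7 each overlapped their neighbour in Cfd.

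Resistin, the product of Retn, is a hormone of fat cells in mice, and a macrophage product in humans. It rested on 2 to 38 reads per library, or 0.130 to 2.28 CPM, and is one of a family of close relatives whose reads could be split differently by another counting method. After naphthalene Retn averaged 0.663 ± 0.403 CPM at day 2, 0.813 ± 0.451 at day 5 and 1.67 ± 0.662 at day 7 (SD, n = 6, 6 and 5). Untreated lungs averaged 0.340 ± 0.129, 0.603 ± 0.336 and 1.14 ± 0.589 CPM at the same days (n = 6 each), and treated and untreated libraries overlapped at every day in each genotype. Its highest values, 2.28 and 2.01 CPM in 2 treated C lungs and 2.09 CPM in a treated KO lung, all came from day 7.

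Perilipin 1, from Plin1, coats the droplets of fat cells and admits the lipases when phosphorylated. At day 2 Plin1 had 2.72, 5.53 and 2.75 CPM in naphthalene-treated KO lungs, against 1.06, 1.54 and 2.48 CPM in untreated KO lungs. In C lungs it had 2.39, 1.59 and 3.93 CPM after naphthalene, against 2.87, 1.92 and 1.504 CPM without it. The KO groups were thus apart and the C groups mixed, with log2 changes of 1.10 ± 0.48 and 0.32 ± 0.46. At day 5 it was the C groups that were apart, with 3.86, 3.09 and 2.99 CPM after naphthalene against 0.946, 0.843 and 2.13 CPM without. Treated lungs of day 7 held the highest value, 11.0 CPM in a C library beside 8.45 and 3.19 CPM in the others, against 3.13, 2.62 and 6.55 CPM in untreated C lungs. KO lungs of day 7 had 4.31 and 4.28 CPM after naphthalene, against 2.88, 5.74 and 6.47 CPM without it, and both genotypes overlapped. Over the untreated days Plin1 averaged 1.90 ± 0.674, 2.13 ± 1.10 and 4.57 ± 1.88 CPM (SD, n = 6 each).

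Fabp4 encodes the fatty acid carrier of fat cells and is one of several close relatives, so its reads too depend on the counting method. At day 2 it had 18.04, 18.8 and 20.7 CPM in treated KO lungs, against 10.1, 8.87 and 14.4 CPM in untreated KO lungs. C lungs had 24.03, 23.9 and 21.1 CPM after naphthalene, against 9.59, 8.90 and 12.1 CPM without it. The groups overlapped in neither genotype, and the log2 change was 0.79 ± 0.26 in KO and 1.17 ± 0.26 in C. At day 5 Fabp4 had 12.5, 15.3 and 19.9 CPM in treated KO lungs against 14.8, 12.97 and 10.01 CPM in untreated ones. It had 19.1, 15.96 and 16.04 CPM in treated C lungs against 14.1, 10.4 and 9.49 CPM in untreated ones, and only the C groups were apart. At day 7 the treated lungs, at 23.2 to 30.9 CPM (median 24.8), stood inside the range of the untreated ones, at 11.6 to 34.2 CPM (median 20.9). In untreated lungs Fabp4 averaged 10.7 ± 2.17 CPM at day 2, 11.97 ± 2.29 at day 5 and 22.1 ± 7.79 at day 7 (SD, n = 6 each).

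**Figure D1:**
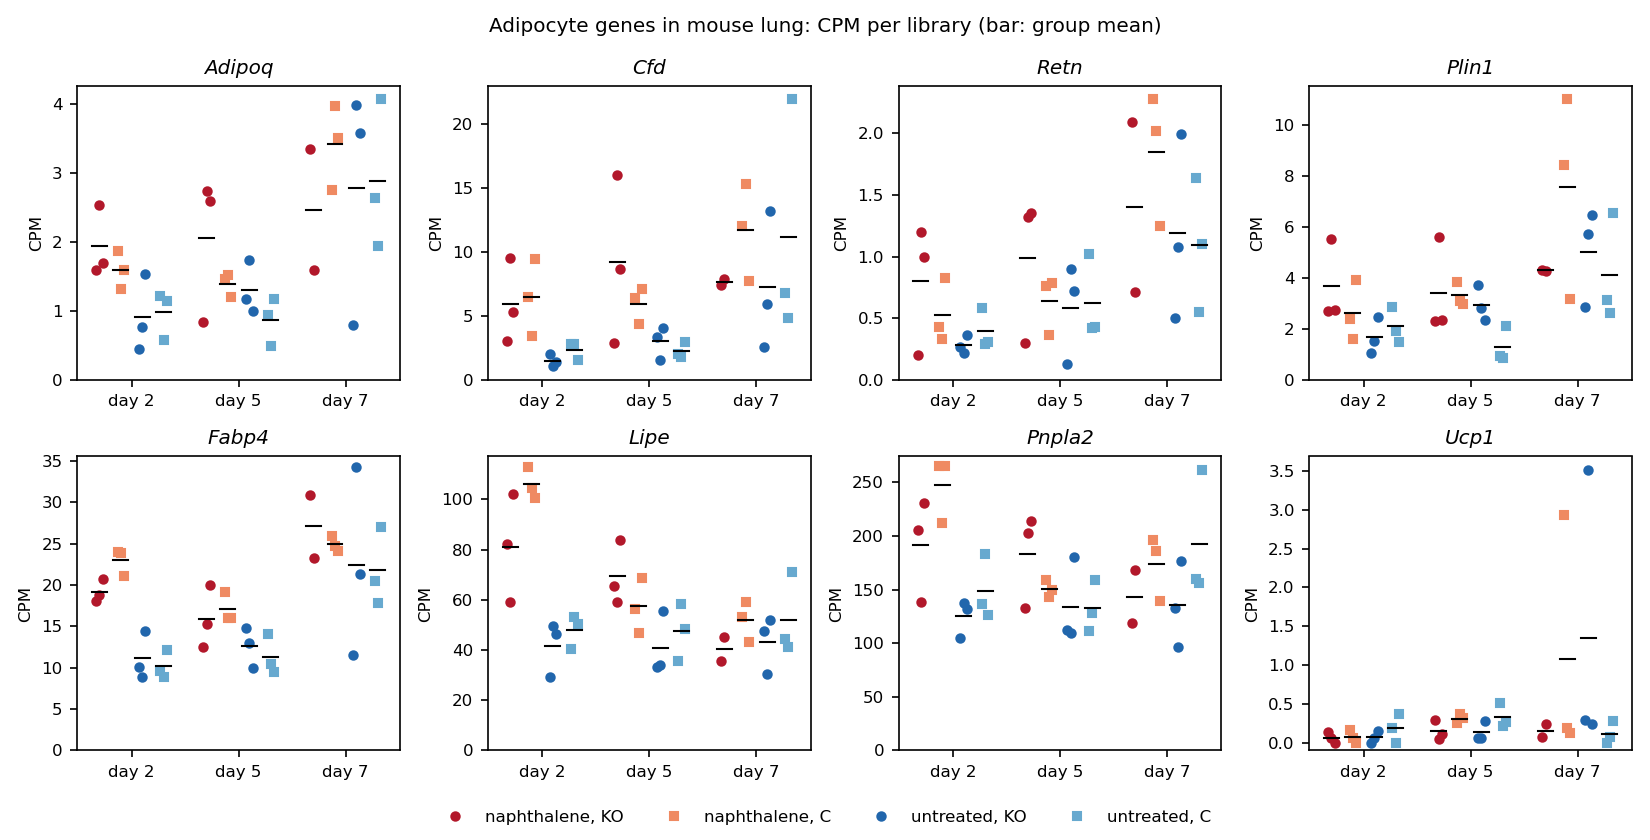
CPM of each of the 8 genes on a linear axis, by day; each point is 1 library of naphthalene-treated KO, naphthalene-treated C, untreated KO or untreated C lungs, and each bar is a group mean. Cfd, Adipoq, Plin1, Retn and Fabp4 sit higher at untreated day 7, where Cfd averaged 9.21 CPM against 1.94 CPM at day 2. Lipe peaks in the treated lungs of day 2 in both genotypes. Pnpla2 peaks there in C, while its KO mean there (191 CPM) is next to that of untreated C lungs of day 7 (193 CPM). Ucp1 stands out in 2 libraries.

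Hormone-sensitive lipase, from Lipe, hydrolyses diglyceride and cholesteryl ester, and adipose triglyceride lipase, from Pnpla2, takes the step before it. Lipe had 82.2, 59.1 and 102 CPM in naphthalene-treated KO lungs at day 2, against 29.3, 49.6 and 46.4 CPM in untreated KO lungs. In C lungs it had 113, 105 and 100 CPM after naphthalene, against 40.5, 53.2 and 50.3 CPM without it. The groups were apart in both genotypes, with log2 changes of 0.95 ± 0.25 in KO and 1.14 ± 0.25 in C. With 1 library of those groups left out at a time, the KO change lay between 0.76 and 1.14. At day 5 Lipe had 65.5, 59.2 and 83.9 CPM in treated KO lungs, against 33.04, 33.9 and 55.6 CPM in untreated KO lungs, still apart. C lungs overlapped at 56.4, 46.9 and 68.8 CPM after naphthalene against 35.7, 58.3 and 48.2 CPM without it. Day by day the treated lungs averaged 93.6 ± 19.7 CPM at day 2, 63.5 ± 12.6 at day 5 and 47.3 ± 9.18 at day 7 (SD, n = 6, 6 and 5). The untreated lungs stayed at 44.9 ± 8.76, 44.1 ± 11.4 and 47.7 ± 13.5 CPM at those days (n = 6 each), and at day 7 the difference was within its error (-0.10 ± 0.28 in KO and -0.01 ± 0.25 in C).

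Pnpla2 at day 2 had 206, 138 and 230 CPM in treated KO lungs against 105, 138 and 132 CPM in untreated KO lungs, where the lowest treated library lay only just above the highest untreated one. In C lungs Pnpla2 had 265, 212 and 266 CPM after naphthalene, against 137, 183 and 126 CPM without it, and the groups were apart. The log2 changes were 0.62 ± 0.25 in KO and 0.73 ± 0.25 in C. Over the untreated days Pnpla2 averaged 137 ± 25.5, 133 ± 29.5 and 164 ± 55.4 CPM, and its day 7 minus day 2 change was 0.24 ± 0.17, beside 0.09 ± 0.18 for Lipe.

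Ucp1, the thermogenic protein of brown fat, was nearly absent from all but 2 libraries. It gave 191 reads in all, of which 52 came from 1 untreated KO lung of day 7 (3.51 CPM, exact Poisson 95% interval 2.62 to 4.61) and 49 from 1 naphthalene-treated C lung of day 7 (2.94 CPM, 2.17 to 3.88). The other 33 libraries had 0 to 7 reads, at most 0.509 CPM, and the 5 libraries without a read allow up to 0.175 to 0.266 CPM (3 reads each; intervals and limits cover counting error only). The other libraries of the same groups had 0.288 and 0.242 CPM (untreated KO) and 0.189 and 0.125 CPM (treated C), so each group's mean rests on 1 library. Ucp1 and its large fitted changes at day 7, 3.05 ± 1.11 in C and -3.10 ± 1.29 in KO for naphthalene, rest on those libraries.

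The same 2 libraries also held 20 and 26 reads of Cidea, a droplet protein of brown fat (1.35 CPM in the untreated KO lung and 1.56 CPM in the treated C lung). Cox7a1 and Cox8b, muscle and brown-fat subunits of cytochrome oxidase, gave 49 and 60 reads in the untreated KO lung (3.31 and 4.05 CPM) and 96 and 121 in the treated C lung (5.75 and 7.25 CPM). The other untreated KO lungs of day 7 had 3.45 and 7.08 CPM of Cox7a1, and 3.38 and 6.72 CPM of Cox8b. The other treated C lungs had 4.34 and 3.69 CPM of Cox7a1, and 4.79 and 2.75 CPM of Cox8b. Elovl3 and Lhx8, further brown-fat markers, had 0 reads in both, and Zic1 had 1 and 0. In the untreated KO lung with 3.51 CPM of Ucp1, Fabp4 was at its highest of all libraries, 34.2 CPM, and Pnpla2 at its lowest, 96.3 CPM. Of 14 brown-fat genes 10 were tested, and those with an edgeR adjusted p under 0.05 were called. Only Dio2, which activates thyroid hormone, was called at day 2 after naphthalene (2.74% of all genes called in KO and 3.76% in C); it rose by 1.75 ± 0.48 in KO (adjusted p = 0.039) and 2.07 ± 0.48 in C (adjusted p = 0.00859), and none fell. The 2 of these with the highest levels, Kcnk3 and Slc36a2, changed by 0.18 ± 0.24 and -0.01 ± 0.21 in KO, and by -0.09 ± 0.24 and -0.02 ± 0.21 in C. Over untreated days Cox7a1 rose at day 7 against day 2 (4.74 against 2.72 CPM, 0.82 ± 0.23, adjusted p = 0.0183; 13.8% of all genes called). Cox7a1 and Kcnk3 rose against day 5 (0.70 ± 0.23 and 0.63 ± 0.17, adjusted p = 0.0312 and 0.00963; 21.6% called), and none fell.

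Over the 8 genes, the median log2 change after naphthalene at day 2 was 1.01 in KO and 0.71 in C, beside -0.03 and -0.04 over all genes tested, and 7 of 8 had a change above 0 in each genotype. Treated libraries all lay above untreated ones for 6 of 8 genes in KO and 5 of 8 in C, where 9.92% and 10.7% of all genes did so. At day 5 the medians were 0.55 in KO and 0.43 in C, and at day 7 they were -0.02 in KO and 0.21 in C. Since the genes were chosen with these levels known, the counts and medians describe them and nothing more. In RNA from a whole organ, fewer cells of a type and less RNA per cell cannot be told apart.

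Between untreated day 7 and day 2 the log2 changes were 2.27 ± 0.42 for Cfd, 1.76 ± 0.48 for Retn, 1.57 ± 0.34 for Adipoq, 1.27 ± 0.33 for Plin1 and 1.05 ± 0.18 for Fabp4 (SE). Between day 7 and day 5 they were 1.79 ± 0.41 for Cfd, 0.93 ± 0.44 for Retn, 1.40 ± 0.34 for Adipoq, 1.20 ± 0.33 for Plin1 and 0.89 ± 0.18 for Fabp4. Between day 5 and day 2 the median of the 8 was 0.17. For every one of the 8 genes the untreated libraries of day 7 overlapped those of the earlier days. Single lungs weigh on these values: without C replicate 3 of untreated day 7, which has the highest Cfd, Plin1 and Adipoq of the untreated lungs of its genotype, the Plin1 change was 0.99 against day 2 and 0.94 against day 5, and without KO replicate 3 of that day the Retn change against day 2 was 1.44. Without the library with 8.12% of reads on Rn18s-rs5 the changes against day 2 were larger, at 2.47 for Cfd, 1.94 for Retn, 1.79 for Adipoq, 1.40 for Plin1 and 1.21 for Fabp4. Naphthalene-treated and untreated-day comparisons share untreated libraries, so the values are set side by side and not correlated.

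**Figure D2:**
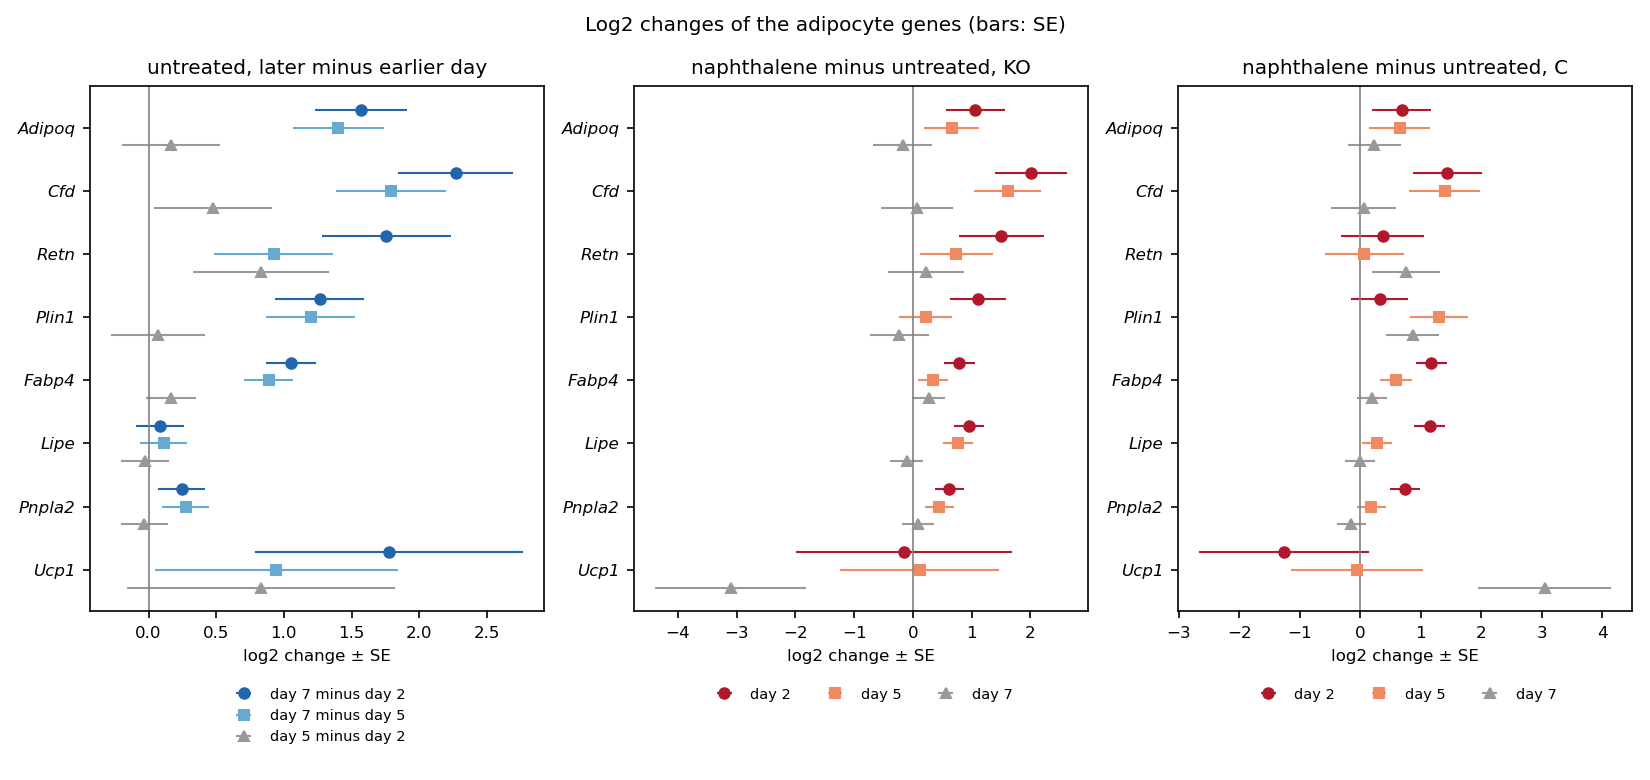
Log2 change ± SE of each gene between untreated days (left panel) and after naphthalene in KO (middle) and C (right) lungs. The 5 genes at the top lie right of 0 at untreated day 7, up to 2.27 for Cfd, while Lipe and Pnpla2 lie near 0 there and are highest at day 2 after naphthalene.

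Genotype was not used to choose the genes and could be tested. None of the 8 genes differed between KO and C in any of the 6 groups of treatment and day, or on average over them; edgeR called 0 of 20606 genes in each of these 7 contrasts (0%), with 2.53% to 15% of all genes at an unadjusted p under 0.05, and DESeq2 called none of the 8. The average KO-C difference was -0.19 ± 0.10 for Lipe (adjusted p = 0.364), -0.19 ± 0.10 for Pnpla2 (adjusted p = 0.371), -0.17 ± 0.24 for Cfd (adjusted p = 0.744), 0.14 ± 0.20 for Adipoq (adjusted p = 0.751) and 0.01 ± 0.11 for Fabp4 (adjusted p = 0.961). The difference for Plin1 was 0.14 ± 0.19, for Retn 0.08 ± 0.27 and for Ucp1 -0.55 ± 0.58, with adjusted p of 0.728, 0.901 and 0.646. A p above the threshold does not show that the genotypes are alike.

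Single groups held a few larger values. In untreated day 5 lungs Plin1 had 3.71, 2.82 and 2.34 CPM in KO, against 0.946, 0.843 and 2.13 CPM in C. Those groups did not overlap, and the log2 difference was 1.13 ± 0.49 (edgeR adjusted p = 0.486). Pnpla2 in untreated day 7 lungs averaged 135 ± 40.2 CPM in KO against 193 ± 59.9 CPM in C (SD), and the groups overlapped. Its log2 difference there was -0.51 ± 0.25 (edgeR adjusted p = 0.952). Ucp1 differed by 3.34 ± 1.10 in untreated day 7 lungs (adjusted p = 0.952) and by -2.81 ± 1.30 in treated day 7 lungs (adjusted p = 0.696), each from the single library named above. Whether naphthalene acted differently in the genotypes was tested by interaction at each day, and edgeR and DESeq2 called 0 genes (0%) at day 2, 5 or 7, with 1.8%, 9.07% and 4.28% of all genes at an unadjusted p under 0.05. For Ucp1 at day 7 the interaction was -6.15 ± 1.70 (adjusted p = 0.969), and for Plin1 it was -1.08 ± 0.66 at day 5 (adjusted p = 0.628) and -1.10 ± 0.67 at day 7 (adjusted p = 0.969).

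Other genes of fat cells were taken from a list of 20, of which 18 were tested. Lep, the hormone leptin of white fat, was not: it gave 66 reads in 26 of the 35 libraries. In untreated lungs 10 of 18 rose at day 7 against day 5 and none fell, where 21.6% of all genes were called in either direction (median 0.70, beside 0.01 over all genes). Car3, a carbonic anhydrase abundant in fat and muscle, had the smallest p of these, at 12.8 CPM at day 7 against 4.36 CPM at day 5, a log2 change of 1.61 ± 0.33 (adjusted p = 0.00117). The other 9 were Mrap, Pck1, Slc2a4, Gpd1, Dgat2, Cidec, Agpat2, Trarg1 and Thrsp, whose changes ran between 0.45 and 1.40. Agpat2, which makes phosphatidic acid for triglyceride, was one of the 2 with the highest levels and rose by 0.55 ± 0.19 (adjusted p = 0.0374); Slc7a10, an amino acid transporter, had 93.1 against 84.1 CPM and did not pass (0.15 ± 0.20, adjusted p = 0.637).

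Against day 2, 6 of 18 rose and none fell at untreated day 7, where 13.8% of all genes were called (median 0.55, beside 0.00 over all genes). Car3 had 12.8 CPM at day 7 against 3.33 CPM at day 2, with no overlap between days (1.98 ± 0.33, adjusted p = 0.000251). Thrsp, a lipogenic nuclear protein, was likewise apart at 4.79 against 1.82 CPM (1.40 ± 0.27, adjusted p = 0.000789). Trarg1, Pck1, Dgat2 and Adig completed the 6. Pparg, the master regulator of fat cell differentiation, did not pass, at 3.40 against 3.98 CPM (-0.23 ± 0.19, adjusted p = 0.465). Leaving out 1 library moved the day 7 against day 5 count: it was 3 without KO replicate 3 of untreated day 7 and 5 without C replicate 3 of that day or C replicate 2 of untreated day 5. Without the library with 8.12% of reads on Rn18s-rs5 it was 10, and the count against day 2 was 6.

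After naphthalene at day 2, 2 of 18 rose in KO and none fell, where 2.74% of all genes were called (median 0.67, beside -0.03 over all genes). Plin4, a coat protein of small droplets, had 11.0 CPM in treated against 5.05 CPM in untreated KO lungs (1.13 ± 0.29, adjusted p = 0.0258), and Gpd1, glycerol phosphate dehydrogenase, had 24.04 against 10.7 CPM (1.17 ± 0.31, adjusted p = 0.0295). In C none of 18 was called by edgeR (3.76% of all genes), with 8 at an unadjusted p under 0.05 and 3 called by DESeq2 (median 0.31, beside -0.04). Gpd1 in C was at 28.4 against 14.8 CPM (0.94 ± 0.30, adjusted p = 0.0782), with no overlap. At day 5 edgeR called none, where 1.32% of all genes were called in KO and 2.39% in C (5 in each at an unadjusted p under 0.05; 0 and 1 by DESeq2), and at day 7 none (0.0728% of all genes in KO and 0.0388% in C; 0 and 2 at an unadjusted p under 0.05; none by DESeq2). Between untreated days 5 and 2 edgeR called none (0.476% of all genes), with 3 at an unadjusted p under 0.05 and none by DESeq2.

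Of the lipolysis genes, Mgll, the monoglyceride lipase, had 176 against 151 CPM in KO lungs and 177 against 164 CPM in C lungs at day 2, treated against untreated, and did not pass. Adrb1, the beta-1 adrenergic receptor, was higher at untreated day 7 than at day 2 (0.56 ± 0.16, adjusted p = 0.0163). At day 7 against day 5, where 21.6% of all genes were called, 3 of 12 lipolysis genes rose and none fell, a share next to it. Plin3, a droplet coat protein, rose by 0.47 ± 0.12, Adrb1 by 0.62 ± 0.16 and Mgll by 0.60 ± 0.16 (edgeR adjusted p = 0.00516, 0.00581 and 0.00792). Of 13 lipogenesis genes, Lpl, the lipase that frees fatty acids from lipoproteins, rose at day 2 in KO (243 against 86.2 CPM, 1.495 ± 0.39, edgeR adjusted p = 0.032). It also rose in C (186 against 59.5 CPM, 1.64 ± 0.40, edgeR adjusted p = 0.0115), with Me1 in C also called and none lower. Over all genes, 2.74% were called in KO and 3.76% in C at day 2 after naphthalene. Between untreated days 7 and 2, where 13.8% of all genes were called, edgeR called none of the 13. Of these, 5 were at an unadjusted p under 0.05, and DESeq2 called none. Between days 7 and 5, where 21.6% of all genes were called, Scd1, a fatty acid desaturase, and Fasn, fatty acid synthase, rose (0.85 ± 0.28 and 0.62 ± 0.23, edgeR adjusted p = 0.0265 and 0.0482). Acss2, which makes acetyl-CoA from acetate, fell (-0.32 ± 0.11, edgeR adjusted p = 0.0349). Genes of the fasting response, 10 of 10 tested, gave no edgeR call at day 2 in KO or C (4 at an unadjusted p under 0.05 in each, and 0 and 2 by DESeq2). In untreated lungs the genes called lower at day 7 against day 5 included Acadm, of fatty acid oxidation (-0.52 ± 0.18, edgeR adjusted p = 0.0387). Those called lower against day 2 included Cpt1a (-0.55 ± 0.15, edgeR adjusted p = 0.0129). Only Acot2 was called higher, against day 5 (0.48 ± 0.16, edgeR adjusted p = 0.0281). Over all genes, 21.6% were called at day 7 against day 5 and 13.8% against day 2.

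Markers of other cells were also called in these comparisons, and their part in the values above was not tested. At untreated day 7 against day 2, where 13.8% of all genes were called, 1 of 8 mesothelial genes rose (Gpm6a, 0.86 ± 0.18, adjusted p = 0.00236), as did 1 of 11 alveolar macrophage genes (Chil3, 1.68 ± 0.25, adjusted p = 5.24e-05). So did 1 of 13 capillary genes (Cdh5, 0.42 ± 0.14, adjusted p = 0.0483) and 1 of 7 lipofibroblast genes (Inmt, 0.63 ± 0.16, adjusted p = 0.00986). Those shares lie below or next to the share over all genes. Of 10 cardiac muscle genes 3 rose (Myl4, Sln and Nppa), as did 3 of 10 lung epithelial genes, among them Scgb1a1 of club cells (1.03 ± 0.19, adjusted p = 0.000488), and 2 of 10 neutrophil genes fell (Cxcr2 and Csf3r, by 1.14 and 0.82 on the log2 scale). EdgeR and DESeq2 called none of 4 thymus, 3 cartilage and 7 skeletal muscle genes, with 0, 1 and 1 at an unadjusted p under 0.05.

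At untreated day 7 against day 5, where 21.6% of all genes were called, each of those 3 lists had 1 call: Ccl25 of thymus fell (-0.53 ± 0.19, adjusted p = 0.0424), Col2a1 of cartilage rose (1.05 ± 0.35, adjusted p = 0.03) and Tnnt3 of skeletal muscle fell (-0.74 ± 0.25, adjusted p = 0.0302). The same contrast called 5 of 10 lung epithelial, 3 of 10 cardiac, 2 of 8 mesothelial and 2 of 11 alveolar macrophage genes higher. It called 2 of 13 capillary genes higher and 1 lower, and 2 of 10 neutrophil genes lower. Of 7 lipofibroblast genes edgeR and DESeq2 called none, with 1 at an unadjusted p under 0.05. In summed levels mesothelial genes had 166 to 270 CPM at untreated day 2, 143 to 238 at day 5 and 187 to 262 at day 7. Cardiac genes had 338 to 498, 255 to 475 and 345 to 632 CPM at those days, and neutrophil genes 106 to 388, 105 to 220 and 93.6 to 163 CPM. All 3 sums overlapped between days. Alveolar macrophage genes had 264 to 458 CPM at untreated day 7 and did not overlap day 2, at 198 to 244 CPM. Chil3, with a mean of 229 CPM over all libraries, weighs most in that sum.

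At day 2 after naphthalene edgeR called 2.74% of all genes in KO and 3.76% in C. Of 8 mesothelial genes Msln rose by 2.01 ± 0.33 in KO and 1.77 ± 0.33 in C (edgeR adjusted p = 0.000295 and 0.000799), with Muc16 also called in KO. The summed mesothelial level was 306 to 434 CPM, against 166 to 270 CPM in untreated lungs. Msln weighs most in that difference, with means of 131 against 32.6 CPM in KO and 181 against 52.9 CPM in C. In C edgeR called no other mesothelial gene. Beside Fabp4, which macrophages and capillaries also make, the summed alveolar macrophage level was 412 to 627 CPM after naphthalene against 198 to 244 CPM without it, with no overlap. Chil3, a chitinase-like protein, weighs most in that sum: it averaged 229 CPM over all libraries, and Ear2, the next, 31.4 CPM. Of the 11 alveolar macrophage genes only Chil3 was called higher, by 2.49 ± 0.36 in KO and 2.50 ± 0.36 in C (edgeR adjusted p = 4.8e-05 and 3.12e-05). Itgax fell in C (-0.74 ± 0.21, edgeR adjusted p = 0.0332). Of 13 capillary genes Apln, a peptide ligand of endothelium, fell by 1.24 in KO and 1.82 in C (adjusted p = 0.0361 and 0.000869). The summed capillary level overlapped, at 4962 to 5953 CPM against 5105 to 6606 CPM. Of 10 neutrophil genes Mmp8 and Cxcr2 rose in KO and Retnlg and Mmp8 in C, by 1.71 to 2.39. Their summed level was 146 to 594 CPM against 106 to 388 CPM, which overlapped. Of 7 lipofibroblast genes Inmt rose in C (0.97 ± 0.23, edgeR adjusted p = 0.0104), and of 4 thymus genes Rag1 fell in C (edgeR adjusted p = 0.0146). Foxj1 of ciliated cells rose in both genotypes. Scgb1a1 fell by 3.95 ± 0.29 in KO and 3.60 ± 0.29 in C. EdgeR and DESeq2 called none of the cardiac, skeletal muscle and cartilage genes in KO or C, with 1, 0 and 0 at an unadjusted p under 0.05 in each. The summed level of the 20 other fat cell genes was 245 to 301 CPM at day 2 after naphthalene, against 182 to 240 CPM in untreated lungs of that day. It was 246 to 378 CPM at untreated day 7. Slc7a10, Agpat2, Trarg1 and Adrb3 weigh most in that sum, with means of 83.0, 36.5, 33.9 and 28.3 CPM over all libraries. Lep had 0.122 CPM, and how much of the sum came from fat cells was not tested.

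Whether the genes moved together was described by correlation of log2 CPM (with 2 reads added) over the 35 libraries, for 28 pairs; libraries share depth, group and treatment, and no p is given. Adipoq, Cfd, Retn, Plin1 and Fabp4, a set picked after the values were seen, had Pearson r between 0.60 (Retn and Fabp4) and 0.83 (Adipoq and Fabp4) in their 10 pairs, with a median of 0.74. With the group means taken out, so that treatment, day and genotype no longer enter, their r ran between 0.29 and 0.73 with a median of 0.53. Cfd and Plin1 kept 0.71 of their 0.80, whereas Cfd and Fabp4 kept 0.30 of 0.72. Among the 11 libraries of day 7, which share 1 library letter, the 10 pairs had r between 0.53 and 0.83 (median 0.64), and among the 24 libraries of the other days between 0.33 and 0.75 (median 0.61).

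Lipe and Pnpla2 made a pair of their own, with r = 0.85 over all libraries (Spearman 0.79), 0.80 with group means taken out and 0.83 without the 2 libraries farthest from the median of Lipe. Against the 5 genes above, these lipases had r between -0.01 and 0.56 with a median of 0.26, and with group means taken out between -0.18 and 0.50 (median 0.05). The range depended on the libraries: it was -0.49 to 0.15 in the 17 naphthalene-treated libraries (median -0.13) and -0.10 to 0.63 in the 18 untreated ones (median 0.20). It was -0.21 to 0.72 in the 11 of day 7 (median 0.17) and 0.21 to 0.68 in the 24 of the other days (median 0.44). Lipe and Adipoq had r = 0.07, and Lipe and Plin1 0.04. The closest approach was Cfd with Pnpla2, at 0.56, and 0.50 with group means taken out. Ucp1 had r between -0.21 and 0.28 with the other 7.

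**Figure D3:**
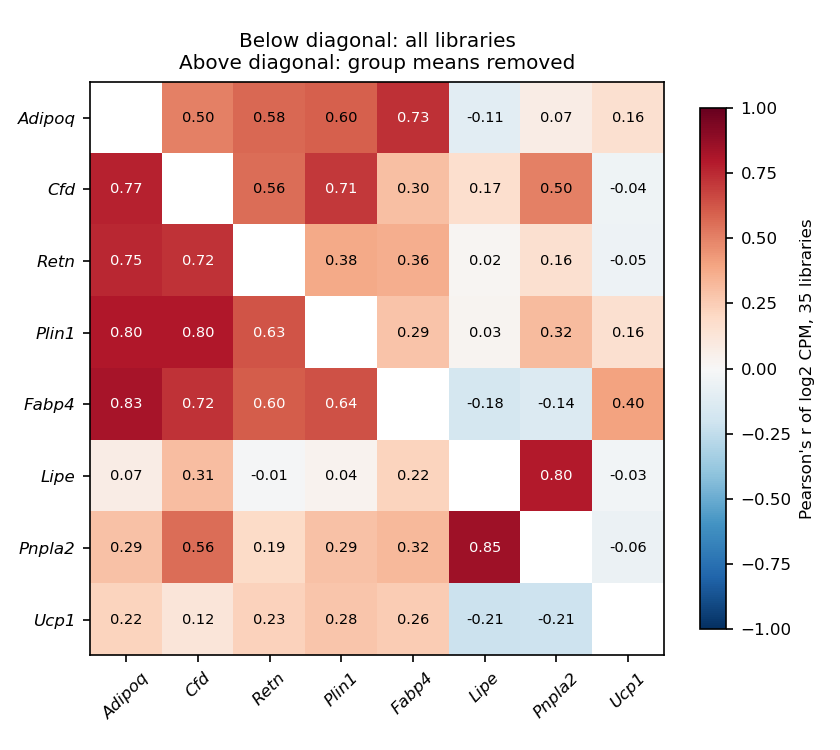
Pearson r of log2 CPM for each of the 28 pairs over 35 libraries, below the diagonal over all libraries and above it with group means taken out. Below it, Adipoq, Cfd, Retn, Plin1 and Fabp4 form a block of 0.60 to 0.83, Lipe and Pnpla2 a pair at 0.85, and Ucp1 lies outside both.

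The genes most like each one, among the 20606 tested and leaving out the 8 themselves and genes with placeholder symbols (Gm or Rik), were also listed by Pearson r over the 35 libraries. Car3, from the fat cell list, came first for Adipoq (0.88) and for Fabp4 (0.84), followed by Popdc2 (0.80) for Adipoq and Sema3d (0.82) for Fabp4. Thrsp, from the same list, was among the 5 nearest of Retn (0.77), as was Faim2 (0.77). Among the 5 nearest of Cfd were Cd82 (0.87) and Ppp1r1b (0.87), and the nearest of Plin1 were Aldh1a2 (0.83), Steap3 (0.80) and Myh9 (0.79), with the mesothelial gene Upk3b (0.79) also among the 5. Pnpla2 was nearest to Ace (0.93) and Scnn1a (0.93), and Lipe to Map3k6 (0.90) and Itgb4 (0.90), with Ace (0.88) the gene among the 5 of both. No other fat cell gene was among the 5 of Cfd, Plin1, Lipe or Pnpla2, and none of the genes compared passed 0.61 with Ucp1.

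Set against whole lists, Adipoq had a median r of 0.53 with the 18 other fat cell genes and 0.45 with the 10 lung epithelial genes. With group means taken out those medians were 0.27 and 0.29, beside 0.00 over all genes. Cfd had 0.57 with the fat cell genes and 0.63 with the lung epithelial genes, and 0.37 and 0.62 with group means taken out. Plin1 had 0.52 and 0.48, then 0.26 and 0.47. Pnpla2 had 0.32 with the fat cell genes and 0.50 with the lung epithelial genes, then 0.18 and 0.60, while Lipe had 0.21 and 0.14, then 0.22 and 0.22. Retn had 0.42 and 0.35, then 0.21 and 0.31, and Fabp4 0.50 and 0.38, then 0.17 and -0.01. Within groups Cfd, Plin1, Pnpla2 and Retn thus had higher medians with lung epithelial genes than with the fat cell list. Adipoq and Lipe had nearly equal ones, and Fabp4 a lower one. Some further lists also passed the fat cell list within groups, and others did not. Fabp4 had 0.30 with cardiac and 0.22 with alveolar macrophage genes, and Adipoq 0.33 with mesothelial genes. Plin1 had 0.39 with lipofibroblast and 0.35 with capillary genes, and Retn 0.30 with neutrophil genes. The differences between lists were not tested. Single genes gave a mixed picture: 1 gene of the fat cell list, Car3, came first in likeness for both Adipoq and Fabp4. Thrsp, of the same list, was among the 5 nearest of Retn. No gene of that list was among the 5 nearest of Cfd, Plin1, Lipe, Pnpla2 or Ucp1. Car3 is also abundant in muscle. The genes and the list were chosen with earlier results of these data known, so this likeness does not check the label.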

How the data were processed

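The authors deposited 1 table of counts per gene, whole numbers with a gene symbol for each of 57186 mouse genes and 1 column for each of 35 libraries; per the labels' protocols, RNA was extracted from whole lung homogenate with Trizol and libraries were made with a Watchmaker Genomics mRNA kit. The submitters' processing notes name GRCm39 and DESeq2 without a role; the aligner is not given in the sources used here, nor are the counter, strandedness and annotation. Counts were analysed as deposited with edgeR 4.0.16 in R 4.3.3 (limma 3.58.1): filterByExpr over 12 groups kept 20606 genes, TMM scaled the libraries, and a quasi-likelihood model with 1 mean per group gave every contrast, with Benjamini-Hochberg adjustment over all genes tested and a threshold of 0.05. The SE is the log2 change divided by the square root of the F statistic. CPM used TMM-scaled totals; correlations used log2 CPM with a prior count of 2. The test was tried on simulated counts. Alternatives were DESeq2 1.42.0 and its size factors, no filter, only the compared groups, replicate number or library letter as a term, and each library left out. The letter was a term only for genotype and interaction contrasts whose groups were split between letters. It was not fitted for naphthalene or untreated-day contrasts. Totals of 10696690 to 21062713 counts set the precision. No 2 libraries were identical, and replicates of a group differed by more than sampling noise. The genes described and the gene lists were chosen with earlier results of these data known. All 8 genes were named; from each list, the lowest-p called gene of each direction and the 2 genes of highest mean level, and other called genes where they complete a count of calls. Some genes that this rule names are not reported here. Sequences came from RefSeq promoters of GRCm38.p6.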

Additional observations from a re-analysis of the deposited data

How the results depend on the processing

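Of the log2 changes of the 8 genes over all settings, 1214 kept their side or stayed within the spread between replicates, 12 moved by more than that and 13 reversed; RLE size factors changed none of the counts of calls for the 20 other fat cell genes by over 1.5 times. The cause of the shifts below was not tested. Without a filter on low counts, 1 of the 8 genes was called for KO against C in untreated day 7 lungs and 1 for the day 7 interaction; the other fat cell genes then gave 4 calls at day 2 after naphthalene in each genotype, and 2 in KO and 3 in C at day 5. Fitting only the compared groups left 1 of the other genes in KO at day 2 and 6 at untreated day 7 against day 5, and put the day 2 median of the 8 in C at 0.95. DESeq2 called 3 of the other genes in C at day 2 and 1 at day 5. With the replicate number as a block, 1 of the other genes was called in C at day 2, and no other of these counts moved by over 1.5 times; the numbers do not pair the samples (34 pairs, r between -0.30 and 0.40, 9 over 0.1).

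With 1 library left out, the other fat cell genes gave 0 to 1 calls in C and 0 to 2 in KO at day 2, 0 to 3 in C and 0 to 1 in KO at day 5, 0 to 1 between untreated days 5 and 2, and 3 to 10 between days 7 and 5. The median of the 8 genes ran between 0.41 and 0.64 at day 5 in C, 0.025 and 0.65 at day 7 in C, -0.31 and 0.16 for KO against C in treated day 2 lungs, -0.68 and -0.33 in treated day 7 lungs, -0.64 and -0.11 in untreated day 2 lungs, 0.11 and 0.73 for the day 2 interaction and -0.036 and 0.52 for that of day 5. The average KO-C difference changed sign for Fabp4 (-0.060 to 0.061, and -0.0015 without a filter) and Retn (-0.087 to 0.17). Counts over all genes moved too. Without a filter edgeR called 503 genes for the average KO-C difference. It then called 245 for KO against C in untreated day 5 lungs and 231 in treated day 7 lungs. With only the compared groups it called 86 in treated day 2 lungs. At day 5 after naphthalene in C it called 492 genes, but 23 without C replicate 1 of untreated day 5 and 3544 without C replicate 3. Depth limits Retn, Adipoq and Ucp1 most, with as few as 2, 5 and 0 reads in a library.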
